A study of Camelus dromedarius with 30 samples.

Results

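CHI3L1 (ENSCDRG00005022058) is 1 of the 22444 genes in the count table of dromedary camel kidney, and it was followed here by its own line of that table through all 30 RNA-seq libraries. It lies on the + strand of chromosome 23, at chr23:34095899-34103494 of the CamDro2 assembly, and its annotation holds 10 exon records with 2111 exonic bases in a span of 7596 bases. Counts were made over exons, so that the values describe mature transcript of the whole gene and not a single exon or UTR. The gene was chosen by its medulla levels and fold changes in these same libraries, and its levels and fold changes are therefore given as a description without a test.

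The libraries came from the renal cortex and the renal medulla of 15 male dromedaries aged 4 to 5 years. 5 control animals had free access to water, 5 dehydrated animals went without water for 20 days with food at will, and 5 rehydrated animals went without water for 20 days and then drank freely for 3 days. Each group of tissue and condition held 5 libraries, 1 per animal. The animals were drawn at random from a larger experiment, pieces of whole cortex and medulla were sampled without sorting cells, and some kidneys had stayed longer at room temperature than others before processing.

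CHI3L1 encodes a secreted, chitin-binding glycoprotein of the chitinase family that has lost the enzyme activity of its relatives. It is made by activated macrophages, neutrophils, chondrocytes and stressed epithelium, is induced by NF-kB, IL-1 and IL-6 signalling, and signals through IL13RA2 and its partner TMEM219 and through CD44 and galectin-3. In the kidney it is best known as a protein that appears in urine after tubular injury. The medulla, where the loops of Henle and the collecting ducts run through hypertonic interstitium, is the part of the kidney that concentrates the urine.

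The total count per library ranged from 15780491 to 20005136 in the medulla and from 12634346 to 19785428 in the cortex, and no library stood apart in depth. All levels below are counts per 1e+06 counts of a library (CPM) scaled by the trimmed mean of M values. Levels are compared between genes only as RPKM, which is the same CPM divided by the exonic length in kilobases. UMOD, the defining transcript of the thick ascending limb, averaged 16736 CPM in control medulla and 3609 CPM in control cortex, and the summed level of 5 cortex tubule genes was 77.9 to 1042 CPM in control medulla against 2523 to 5227 CPM in control cortex. UMOD and the cortex genes thus had the order that the tissue labels give, while 4 of the 9 loop and collecting duct markers (CLDN10, SCNN1A, HSD11B2 and ATP6V1B1) had a higher mean in control cortex than in control medulla. Cortex tubule transcripts were also counted in the medulla.

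In control medulla CHI3L1 stood at 12.3, 11.0, 13.6, 3.26 and 7.68 CPM in replicates 1 to 5, from 257, 268, 244, 66 and 184 counts. In dehydrated medulla it stood at 191, 38.5, 32.1, 64.1 and 158 CPM, from 4148, 946, 752, 1631 and 3673 counts. In rehydrated medulla it stood at 78.5, 42.7, 121, 30.9 and 96.7 CPM, from 1842, 1092, 2002, 570 and 2437 counts. Every dehydrated and every rehydrated library lay above the highest control library, which was also true of 1.75% and 1.82% of all tested genes in these 2 comparisons. Since the gene was chosen for this pattern, nothing further is read from it.

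The group means were 9.56 ± 4.15 CPM (SD, n = 5) in control, 96.6 ± 72.7 CPM (SD, n = 5) in dehydrated and 74.0 ± 37.4 CPM (SD, n = 5) in rehydrated medulla. CHI3L1 was 10.1-fold higher in dehydrated than in control medulla, with a log2 fold change of 3.34 ± 0.65 (SE), the 3rd highest of 15376 tested genes. Rehydrated medulla was 7.73-fold above control, with a log2 fold change of 2.95 ± 0.64 (SE), the 7th highest. Between rehydration and dehydration the log2 fold change was -0.38 ± 0.59 (SE), and the groups overlapped, with only 1 rehydrated library below all dehydrated ones. After 3 days of drinking the medulla transcript still stood at 7.73 times the control mean, and its difference from the dehydrated level was smaller than the standard error. In pieces of whole tissue, more cells of a type and more RNA per cell cannot be told apart. The plot of CHI3L1 level by library shows these values on a log axis.

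**Figure D1:**
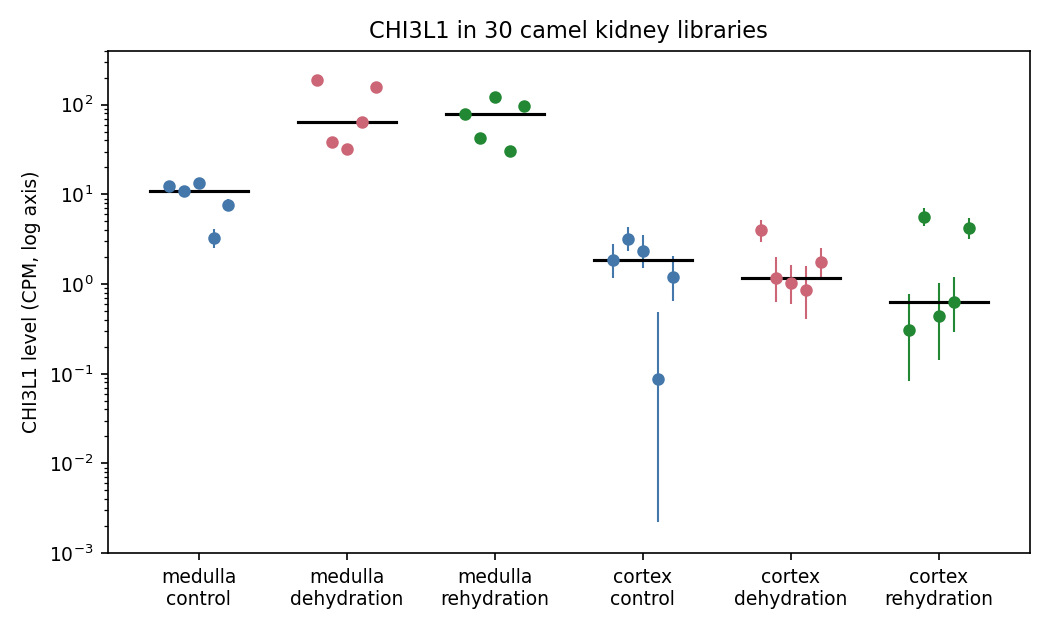
CHI3L1 in each of the 30 libraries, in CPM on a log axis, by tissue and condition; points are libraries in replicate order, vertical lines their exact Poisson 95% intervals and horizontal bars group medians. The dehydrated and rehydrated medulla libraries (30.9 to 191 CPM) lie above the control medulla libraries (3.26 to 13.6 CPM), while the cortex groups overlap.

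In the cortex CHI3L1 was near the limit of detection. Control cortex libraries held 1.87, 3.20, 2.37, 0.0872 and 1.21 CPM, from 22, 44, 24, 1 and 13 counts. Dehydrated cortex libraries held 3.97, 1.18, 1.02, 0.856 and 1.76 CPM, from 52, 13, 18, 10 and 28 counts. Rehydrated cortex libraries held 0.306, 5.62, 0.438, 0.633 and 4.23 CPM, from 4, 72, 5, 9 and 59 counts. The 3 cortex groups overlapped in every comparison. The library with 1 count has an exact Poisson 95% interval of 0.002 to 0.486 CPM, which covers counting error only.

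The cortex means were 1.75 ± 1.18 CPM (SD, n = 5) in control, 1.76 ± 1.28 CPM (SD, n = 5) in dehydration and 2.24 ± 2.50 CPM (SD, n = 5) in rehydration. The log2 fold changes of CHI3L1 in the cortex were -0.00 ± 0.73 (SE) for dehydration against control, 0.35 ± 0.72 (SE) for rehydration against control and 0.36 ± 0.71 (SE) for rehydration against dehydration. All were smaller than their standard errors. The relative counting error of a single library was 11.8% to 100% in the cortex against 1.55% to 12.3% in the medulla. A difference between conditions in the cortex was not detectable at these counts and this spread. The plot of CHI3L1 differences sets the 9 contrasts side by side.

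**Figure D2:**
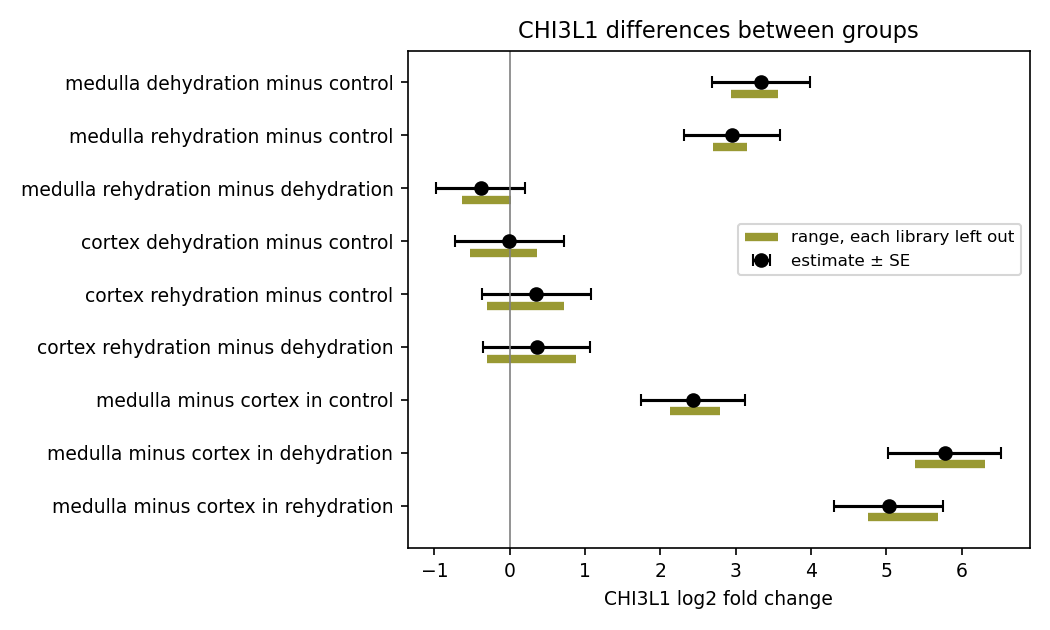
CHI3L1 log2 fold changes between conditions within each tissue and between tissues within each condition; points and whiskers are the estimate ± SE of the fit across all 30 libraries, and thick bars span the estimates with each library left out in turn. The medulla changes from control are 3.34 and 2.95, those in the cortex lie between -0.00 and 0.36, and the tissue difference is 2.43 in control, 5.77 in dehydration and 5.03 in rehydration.

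Leaving out each library of the compared groups in turn moved the medulla change to between 2.93 and 3.56 in dehydration and between 2.70 and 3.15 in rehydration. The difference between rehydration and dehydration in the medulla ranged from -0.64 to 0.02, and its sign therefore rested on single libraries. In the cortex the same ranges were -0.53 to 0.36, -0.30 to 0.72 and -0.30 to 0.89, and each of them spans 0.

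CHI3L1 was a medulla-enriched transcript in each condition. In control animals the lowest medulla library (3.26 CPM) stood just above the highest cortex library (3.20 CPM), and the log2 difference between tissues was 2.43 ± 0.69 (SE), or 5.40-fold. In dehydrated animals the lowest medulla library held 32.1 CPM and the highest cortex library 3.97 CPM, and the difference was 5.77 ± 0.75 (SE), or 54.7-fold. After rehydration the corresponding libraries held 30.9 and 5.62 CPM, and the difference was 5.03 ± 0.72 (SE), or 32.7-fold. Medulla libraries lay above all cortex libraries of the same condition for 22.7%, 28% and 14.6% of tested genes, so that a separation of this kind was common. The dehydration response was larger in the medulla by 3.34 ± 0.96 (SE) on the log2 scale, a value taken from the same libraries that chose the gene.

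Ordered by RPKM, the group means of CHI3L1 were 45.8 in dehydrated medulla, 35.04 in rehydrated medulla, 4.53 in control medulla, 1.06 in rehydrated cortex, 0.833 in dehydrated cortex and 0.827 in control cortex. Dehydrated and rehydrated medulla did not differ beyond their spread, and neither did the 3 cortex groups. Control medulla also overlapped rehydrated cortex, with 4 of its 5 libraries above all of the rehydrated cortex libraries. On the RPKM scale CHI3L1 had a higher level than 39.8% of tested genes in control medulla, 88.2% in dehydrated medulla and 84.5% in rehydrated medulla. In the cortex the same share was 19.8% to 21.5%.

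The spread of CHI3L1 between animals was wide in every group. The highest library held 4.17 times the lowest in control medulla, 5.94 times in dehydrated medulla and 3.93 times in rehydrated medulla, and in the cortex the same ratio was 36.7, 4.63 and 18.4. The within-condition SD of log2 CPM in the medulla was 0.95, against a median of 0.38 over all tested genes, and exceeded that of 93.9% of them. Among 2545 genes within 0.5 log2 units of its medulla level, CHI3L1 exceeded 98.2%. In the cortex the SD was 1.46, above 93.4% of 1139 genes of like level. The lowest medulla value in control came from replicate 4, and the dehydrated group held 2 libraries at 158 and 191 CPM and 3 at or below 64.1 CPM. The names of the columns carry a suffix N, whose meaning is not given, in 4 of the 5 medulla libraries of each condition. Within these 4 libraries CHI3L1 ranged from 3.26 to 12.3 CPM in control, 38.5 to 191 CPM in dehydration and 30.9 to 96.7 CPM in rehydration, so that the order of control against the other conditions was the same.

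Whether an animal with much CHI3L1 in the medulla also had much in the cortex was examined on the deviations from the condition means, which the choice of the gene did not use. Over the 15 animals as the labels pair them, Pearson's r was 0.434 (permutation p = 0.0968) and Spearman's rho 0.443 (permutation p = 0.0979), two-sided and with animals permuted within condition. This was the 1 planned relation, so no adjustment was made. Without the 2 animals whose cortex value lay farthest from the median, r was 0.440 (permutation p = 0.142). The relation was not distinguishable from 0 by this test, but it depended on single animals, both control and rehydrated. Leaving out single animals gave r from 0.216 (without control 4, permutation p = 0.490) to 0.614 (without rehydrated 2, permutation p = 0.0222), and without rehydrated 3 it was 0.567 (permutation p = 0.0306).

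The pairing of the rehydrated libraries is uncertain, because the labels number both tissues 1 to 5 while the column names number the cortex libraries 2 to 6 and the medulla libraries 1 to 5. Among the 10 control and dehydrated animals alone, where both sources give the same pairs, r was 0.797 (permutation p = 0.00366) and rho 0.855 (permutation p = 0.00417). Without the 2 animals farthest from the median cortex value, r over the other 8 was 0.673 (permutation p = 0.0706). With the rehydrated libraries paired by the number in the column names, r over 14 pairs was 0.776 (permutation p = 0.00047) and rho 0.811 (permutation p = 0.0006), and r was 0.720 (permutation p = 0.00893) without the 2 farthest pairs. These pairings were added after the data had been seen. Over all tested genes, the mean correlation of the deviations of the paired libraries in rehydration was 0.0487 by the labels and 0.351 by the column names, against 0.139 in control and 0.0934 in dehydration. The plot of cortex against medulla CHI3L1 shows the pairs as labelled.

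**Figure D3:**
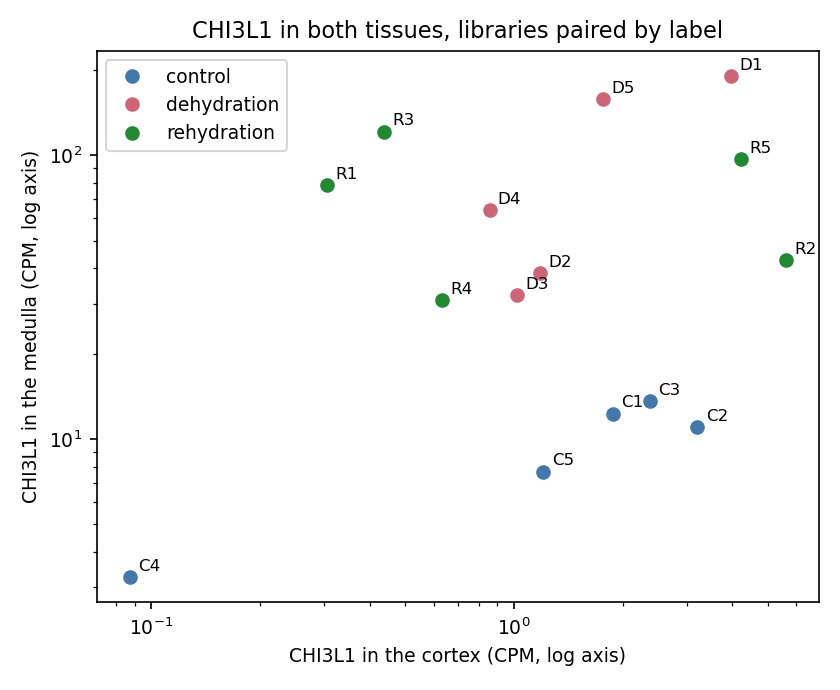
CHI3L1 in the cortex against the medulla of the same animal, as the labels pair them, both in CPM on log axes, with 1 point per animal and 1 colour per condition. All 15 points lie on the medulla side, control 4 is lowest in both tissues, and rehydrated 2 and 5 have the highest rehydrated cortex values.

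Genes with a medulla pattern like that of CHI3L1 were ranked by Pearson's r of log2 CPM over the 15 medulla libraries, as a description with no test. These libraries share condition as well as animal, so that r mixes differences between conditions with differences between animals. Of 15375 genes compared, 9 had r over 0.8, 0 had r over 0.9, and 7 had r under -0.8, with a median of -0.01. The highest r, 0.860, belonged to ENSCDRG00005005057, which has no symbol in the lists used, and 37 of the 100 most similar genes had one. Naming was limited to the 3557 genes with a symbol and a mean of at least 1 CPM in the medulla.

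The 10 named genes with the highest r were PITPNM1 (0.829), ACSBG1 (0.828), APOD (0.807), RAB11B (0.791), DAPK3 (0.778), THBS2 (0.767), FBXL19 (0.765), IKBKB (0.754), YBX3 (0.751) and PNPLA6 (0.748). Their r within condition ranged from 0.351 for PITPNM1 to 0.769 for APOD, and their r in the cortex from 0.030 for IKBKB to 0.469 for RAB11B. Without medulla control replicate 4, only 4 of the 10 were again among the 10 highest, and 5 were without rehydrated replicate 5 and 6 without dehydrated replicate 1 or 5. When deviations from the condition means were ranked in place of the levels, 0 of the 10 were again among the 10 highest.

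PITPNM1, a phosphatidylinositol transfer protein gene on chromosome 10, stood at 12.1, 13.7, 10.1, 10.0 and 9.64 CPM in control medulla, 23.1, 22.6, 19.4, 18.5 and 15.4 CPM in dehydration and 24.1, 20.0, 24.8, 14.3 and 21.9 CPM in rehydration. All dehydrated and rehydrated libraries were above control, as for 1.75% and 1.82% of all tested genes. PITPNM1 was picked for its likeness to CHI3L1 in these libraries, so nothing is read from this. Its log2 fold changes were only 0.83 ± 0.21 and 0.92 ± 0.21 (SE). ACSBG1, which encodes an acyl-CoA synthetase for long-chain fatty acids, stood at 0.167 to 0.574 CPM in control medulla, 12.8 to 83.1 CPM in dehydration and 1.13 to 9.38 CPM in rehydration. Its log2 fold changes from control were 6.76 ± 0.68 and 3.77 ± 0.63 (SE), and between rehydration and dehydration its log2 fold change was -2.99 ± 0.55 (SE), beside -0.38 ± 0.59 (SE) for CHI3L1. The control values of ACSBG1 were near the floor, so the size of its changes from control rests on few counts. It reached the mean level required for naming only through the dehydrated and rehydrated libraries. APOD, the gene of the lipocalin apolipoprotein D, stood at 57.5, 63.8, 90.7, 35.1 and 52.6 CPM in control, 234, 84.8, 118, 95.4 and 176 CPM in dehydration and 102, 40.3, 172, 89.0 and 85.3 CPM in rehydration. Its lowest control library was replicate 4 and its highest dehydrated libraries were replicates 1 and 5, the same libraries as for CHI3L1. APOD, too, was picked for its likeness to CHI3L1 in these libraries.

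RAB11B, a small GTPase of endosome recycling, averaged 44.2, 57.1 and 70.6 CPM in control, dehydrated and rehydrated medulla. DAPK3, a kinase of the death-associated family, averaged 33.8, 41.6 and 51.5 CPM, and YBX3, a cold-shock RNA-binding protein gene, 29.7, 43.8 and 55.7 CPM. IKBKB, which encodes the kinase that releases NF-kB from its inhibitor, stood at 30.0, 32.1, 29.8, 29.2 and 29.1 CPM in control, 34.9, 34.4, 36.1, 30.8 and 35.9 CPM in dehydration and 39.9, 36.2, 43.8, 31.2 and 40.6 CPM in rehydration. Its log2 fold changes of 0.20 ± 0.11 and 0.35 ± 0.11 (SE) were small beside that of CHI3L1. THBS2, a matrix thrombospondin gene, averaged 11.6, 19.1 and 16.1 CPM. FBXL19, of the F-box family, averaged 11.5, 15.6 and 19.6 CPM and PNPLA6, a lysophospholipase gene, 24.7, 29.8 and 37.9 CPM, so that for 7 of the 10 genes the rehydrated mean was the highest of the 3, which was not so for CHI3L1.

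The 5 genes with the lowest r were DLD (-0.859), BAG1 (-0.821), MTPAP (-0.806), AIFM1 (-0.805) and MRPS27 (-0.781). DLD encodes the dihydrolipoamide dehydrogenase of mitochondrial 2-oxoacid dehydrogenases, and MTPAP, AIFM1 and MRPS27 encode a mitochondrial poly(A) polymerase, an intermembrane flavoprotein and a mitochondrial ribosomal protein. BAG1 encodes a co-chaperone of HSP70. DLD stood at 318, 287, 281, 314 and 287 CPM in control, 218, 265, 269, 271 and 238 CPM in dehydration and 259, 268, 205, 298 and 229 CPM in rehydration. Within each condition it was lowest in the library where CHI3L1 was highest, namely control 3, dehydrated 1 and rehydrated 3. Its within-condition r with CHI3L1 was -0.779. DLD was picked for its low r in these libraries, so nothing is read from this match. In the study's RNA integrity numbers, control 3 and rehydrated 3 were the lowest of their medulla groups, while dehydrated 1 was among the highest. The part of RNA quality in these values was not tested. For all 15 genes the within-condition r was nearer to 0 than r, and lay between -0.779 and -0.411 for the last 5. The heat map of the most and least similar genes shows each library.

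**Figure D4:**
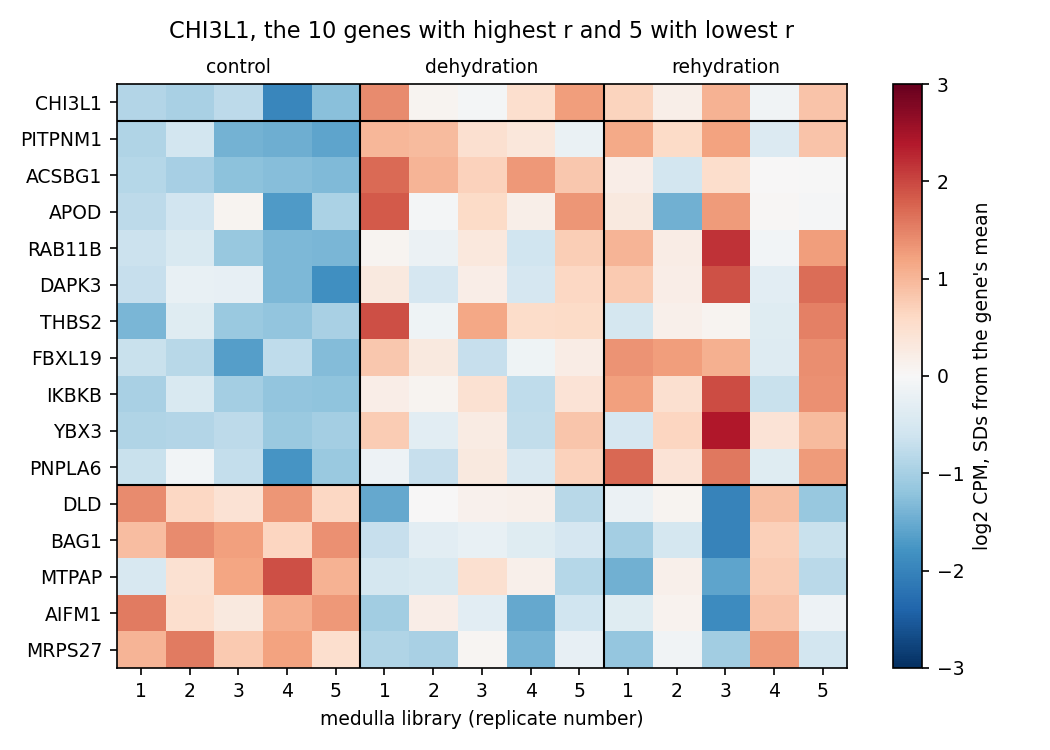
Log2 CPM of CHI3L1, the 10 named genes with the highest r and the 5 with the lowest r (lines, top to bottom) in the 15 medulla libraries (columns, by condition and replicate), coloured by SDs from each gene's own mean. Red marks libraries above the gene's mean and blue those below it: CHI3L1 and the first 10 genes are mostly blue in control and red elsewhere, and DLD to MRPS27 the reverse.

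On chromosome 23 the nearest annotated gene, ENSCDRG00005022060, begins 3572 bases beyond the end of CHI3L1 on the same strand. It averaged 0.313, 0.905 and 0.534 CPM in control, dehydrated and rehydrated medulla and 3.54, 6.36 and 5.57 CPM in the cortex, so that it was higher in the cortex, unlike CHI3L1. Its medulla r with CHI3L1 was 0.733, and its log2 fold change in dehydrated medulla was 1.52 ± 0.58 (SE, edgeR adjusted p = 0.264). The next gene, ENSCDRG00005022066, lies 12246 bases away on the other strand and averaged 0.363, 1.22 and 0.835 CPM in the medulla (r 0.743), with a log2 fold change of 1.71 ± 0.55 (SE, edgeR adjusted p = 0.151). ENSCDRG00005022056, 31223 bases before CHI3L1, averaged 1.75, 1.84 and 1.74 CPM. BTG2, an antiproliferative gene 107641 bases before CHI3L1, averaged 177, 137 and 109 CPM. ENSCDRG00005022049, 132907 bases before it, averaged 239, 353 and 309 CPM, and ENSCDRG00005022070, 100562 bases after it, had 1 count in all and was not tested. None of these neighbours passed the test in a medulla comparison.

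Among the relatives of CHI3L1 in the chitinase family, 2 of the other 6 listed genes could be found by symbol, and both were tested. In the RefSeq gene order of another assembly, the listed gene CHIT1 lies between BTG2 and CHI3L1. That is the place of the unnamed neighbour ENSCDRG00005022056 here, whose identity was not tested. CHID1, which encodes a secreted protein with a chitinase-like domain, ranged from 63.5 to 82.9 CPM in control, 37.4 to 76.0 CPM in dehydrated and 63.3 to 165 CPM in rehydrated medulla. CTBS, the gene of the lysosomal di-N-acetylchitobiase, ranged from 75.3 to 146, 106 to 171 and 61.7 to 162 CPM. Neither passed the test against control in the medulla: the log2 fold changes in dehydration were -0.30 ± 0.30 (SE, edgeR adjusted p = 0.790) for CHID1 and 0.27 ± 0.22 (SE, edgeR adjusted p = 0.729) for CTBS. In control medulla both had a higher RPKM (47.5 and 81.4) than CHI3L1 (4.53), while in dehydrated medulla the level of CHI3L1 (45.8) lay between those of CHID1 (38.6) and CTBS (98.4). The alignment of reads shared between chitinase relatives is not given in the sources used here, and its part in the counts was not tested.

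Of 12 listed receptors and binding partners of CHI3L1, 6 were paired with a symbol and tested, and IL13RA2 and TMEM219 were not among them. LGALS3, which encodes galectin-3, averaged 316, 319 and 351 RPKM in control, dehydrated and rehydrated medulla, and CD44, the hyaluronan receptor, 35.8, 29.3 and 31.9 RPKM. In the medulla the log2 fold changes for dehydration were 0.01 ± 0.20 for LGALS3, -0.29 ± 0.22 for CD44, -0.44 ± 0.41 for the syndecan gene SDC1, -0.11 ± 0.14 for the integrin gene ITGB5 and -0.37 ± 0.23 (SE) for ITGB4. For IL13RA1 the same value was 0.44 ± 0.13 (SE, edgeR adjusted p = 0.0984). None of the 6 passed the edgeR test in that comparison. IL13RA1, a receptor chain for IL-13, stood at 371, 347, 366, 351 and 306 CPM in control, 450, 369, 485, 588 and 470 CPM in dehydration and 322, 355, 330, 321 and 309 CPM in rehydration. All its rehydrated libraries lay below all dehydrated ones, as for 2.32% of tested genes, and it fell by 0.53 ± 0.13 (SE) on the log2 scale between them (edgeR adjusted p = 0.0286). The call on IL13RA1 was lost without dehydrated replicate 3 or 4 or rehydrated replicate 1 or 5, with adjusted p from 0.0582 to 0.1105 in edgeR.

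Together, 6 lists of genes around CHI3L1 named 111 other genes, of which 50 could be found by symbol and were tested. The lists were chosen with earlier results of these data known, so calls on their genes are not independent of that choice. In dehydrated against control medulla 4 of the 50 fell and 0 rose (8%), where 0.741% of all tested genes fell and 0.969% were called in all, and their median log2 fold change was -0.14 against 0.01 for all tested genes. An unadjusted p under 0.05 was reached by 21 of the 50, and by 11.6% of all tested genes. The symbols came from the study's supplementary lists, which include its catalogues of genes and proteins that differed in these samples. Genes found by symbol may therefore be called more often than all tested genes. These shares do not compare like with like, here or in the cortex and marker counts below. Against the control medulla after rehydration, 1 of the 50 fell and 0 rose, where 0.0715% of all genes fell and 0.221% were called. From dehydrated to rehydrated medulla 2 rose and 1 fell, where 1.15% of all genes rose, 0.839% fell and 1.99% were called in all. No list gene thus rose beside CHI3L1 in dehydrated medulla by the quasi-likelihood F-test of edgeR, adjusted over all genes after Benjamini and Hochberg. DESeq2 called 8 of the 50, with AQP2 and IL13RA1 higher, where it called 394 of all 15376 tested genes.

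Genes of the pathways that induce CHI3L1 (NF-kB, IL-1, IL-6 and STAT3; 7 of 22 listed were tested) had a median log2 fold change of -0.04 in dehydrated medulla. IL1B, the gene of the cytokine interleukin-1 beta, stood at 19.2, 14.4, 9.07, 7.50 and 7.47 CPM in control, 6.07, 2.49, 3.24, 3.38 and 3.95 CPM in dehydration and 2.56, 3.67, 5.99, 4.17 and 6.51 CPM in rehydration. The control libraries lay above all others, as for 2.04% of tested genes in dehydration and 0.969% in rehydration. IL1B fell by 1.59 ± 0.36 (SE) on the log2 scale in dehydration (edgeR adjusted p = 0.0237), and the value in rehydration was -1.33 (edgeR adjusted p = 0.105). Without control 1 or dehydrated 2, 3 or 4 its dehydration call was lost, with adjusted p of 0.0711 to 0.0981 in edgeR. STAT3, NFKB1, NFKB2, JAK1 and MYD88 had log2 fold changes between -0.04 and 0.16, and BCL3 one of -0.32, and none passed the test.

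Among genes of tubular injury and the acute phase (12 of 30 listed were tested), the median log2 fold change was 0.28 in dehydrated and 0.46 in rehydrated medulla. CCN1, a matricellular gene of the growth factor response, stood at 158, 253, 245, 212 and 121 CPM in control and 99.6, 91.0, 91.1, 57.2 and 99.7 CPM in dehydration, again without overlap. It fell by 1.17 ± 0.23 (SE) on the log2 scale (edgeR adjusted p = 0.00873), and this call was kept without each of the 10 libraries. CLU, the gene of the secreted chaperone clusterin, had r of 0.722 with CHI3L1, but its log2 fold change in dehydration of 0.69 ± 0.24 (SE, edgeR adjusted p = 0.196) did not pass. KRT19, a keratin of simple epithelia, stood at 90.2, 124, 150, 76.5 and 96.0 CPM in dehydrated and 263, 220, 748, 254 and 123 CPM in rehydrated medulla, where 4 of 5 libraries lay above all dehydrated ones. It rose by 1.58 ± 0.37 (SE) on the log2 scale between them (edgeR adjusted p = 0.0230). Without rehydrated replicate 3 the KRT19 value was 1.00 (edgeR adjusted p = 0.101), and the call was also lost without dehydrated 1 (adjusted p = 0.0505) or dehydrated 4 (adjusted p = 0.0772).

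Matrix and fibroblast genes (16 of 25 listed were tested) had a median log2 fold change of -0.70 in dehydrated and -0.35 in rehydrated medulla. BGN, the gene of the proteoglycan biglycan, stood at 347, 335, 243, 275 and 234 CPM in control, 169, 126, 241, 149 and 170 CPM in dehydration and 140, 180, 179, 190 and 196 CPM in rehydration. Only dehydrated replicate 3 reached into the control range. BGN fell by 0.74 ± 0.15 (SE, edgeR adjusted p = 0.0113) and by 0.70 ± 0.15 (SE, edgeR adjusted p = 0.0458) on the log2 scale, and its r with CHI3L1 was -0.709. The first BGN call was lost without dehydrated 4 (adjusted p = 0.0516) and in a fit of the medulla libraries alone (adjusted p = 0.0752), and the second without any 1 of 9 of the 10 libraries, rehydrated 4 being the exception (adjusted p of 0.0684 to 0.184 without the others).

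COL15A1, which encodes a basement membrane collagen, stood at 115, 116, 51.6, 89.7 and 66.0 CPM in control and 75.1, 26.6, 34.5, 45.7 and 34.4 CPM in dehydration. The groups overlapped, and COL15A1 fell by 1.02 ± 0.24 (SE) on the log2 scale (edgeR adjusted p = 0.0305), a call lost without control 1 or 2 or dehydrated 2, 3, 4 or 5 (adjusted p of 0.0738 to 0.102) and in the medulla libraries alone (adjusted p = 0.115). FBLN2, the gene of a fibulin of elastic fibres and basement membranes, stood at 11.3, 8.27, 10.9, 8.25 and 9.36 CPM in dehydration and 31.1, 19.0, 42.4, 17.6 and 37.1 CPM in rehydration, with no overlap between these groups, as for 2.43% of tested genes. It rose by 1.61 ± 0.27 (SE) on the log2 scale between them (edgeR adjusted p = 0.0015), and was called without each of the 10 libraries. In the same comparison CHI3L1 was at -0.38.

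Hypertonicity genes (7 of 16 listed were tested) had a median log2 fold change of 0.62 in dehydrated and 0.30 in rehydrated medulla, but none passed the edgeR test in a medulla comparison. In DESeq2, AQP2 was the member called in dehydrated medulla, where 394 of all 15376 tested genes were called. The vasopressin-regulated water channel AQP2 averaged 286 ± 87.7, 502 ± 177 and 415 ± 69.3 CPM (SD, n = 5) in control, dehydrated and rehydrated medulla, with a log2 fold change in dehydration of 0.81 ± 0.22 (SE, edgeR adjusted p = 0.0751). SLC6A12, the betaine transporter, had 0.96 ± 0.43 (SE, edgeR adjusted p = 0.382). The plot of the related genes places them beside CHI3L1.

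**Figure D5:**
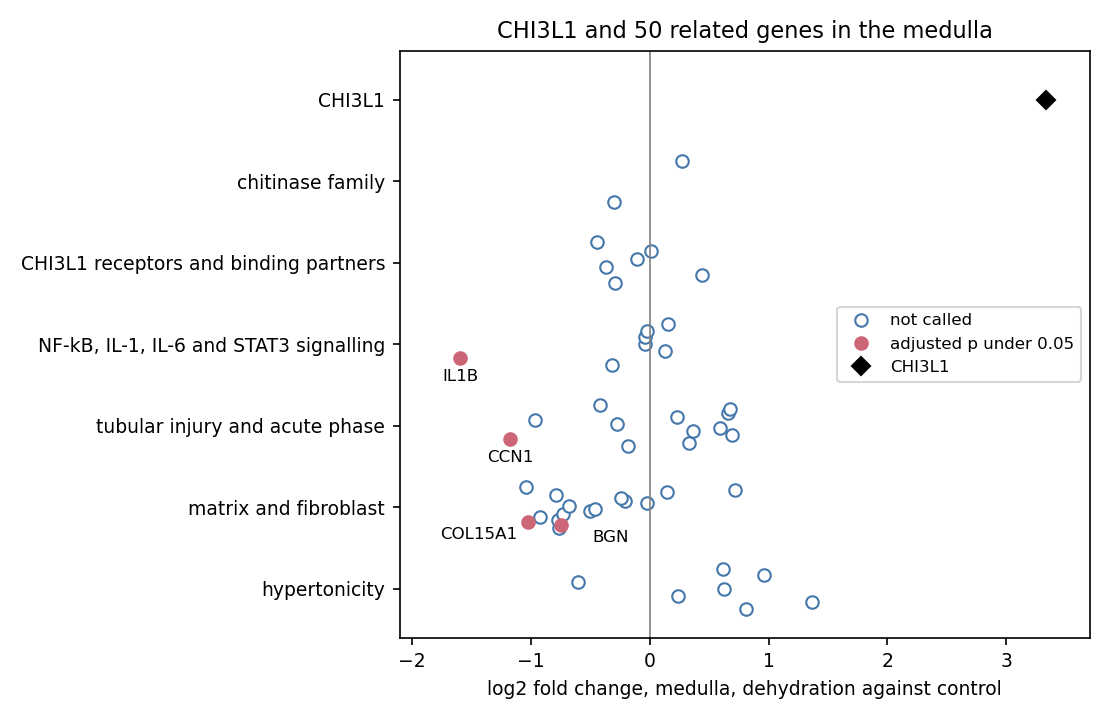
Log2 fold change in medulla, dehydration against control, of CHI3L1 (diamond) and of the 50 tested genes of 6 related lists, by list; filled points had an adjusted p under 0.05 in edgeR over all genes. CHI3L1 lies at 3.34, the 50 genes lie between -1.59 and 1.37, and the 4 called genes (IL1B, CCN1, COL15A1 and BGN) are all lower in dehydration.

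In the cortex 4 of the same 50 genes were called in dehydration (all genes 2.34%, with 1.28% higher and 1.06% lower): AQP3 (log2 fold change 2.35) and the taurine transporter SLC6A6 (0.99) rose, and LGALS3 (-0.73) and the matrix gene TNC (-2.55) fell. When its 10 libraries were left out singly, TNC was called 10 times, AQP3 7 times, LGALS3 2 times and SLC6A6 0 times. After rehydration against control 0 of the 50 were called (all genes 0.039%) in edgeR, with 15 at an unadjusted p under 0.05 (all genes 8.67%). In limma-voom 0 were called (all genes 4 of 15376), and in DESeq2 2, BCL3 and FGB (all genes 124 of 15376). Between rehydration and dehydration 6 were called (all genes 2.15%, with 0.937% higher and 1.21% lower), ITGB4 and TNC higher and AQP3, CTBS, PRELP and THBS2 lower, of which AQP3 and CTBS were each called in 8 of 10 fits lacking a single library, TNC in 6, ITGB4 and THBS2 in 4 and PRELP in 1. These cortex genes were named after their values had been seen. In the same 3 cortex comparisons the CHI3L1 values of -0.00, 0.35 and 0.36 were within 1 SE of 0. No list gene had a dehydration response that differed between the tissues in edgeR (0 of 50, all genes 0.039%), with 12 at an unadjusted p under 0.05 (all genes 7.23%). In DESeq2 1 was called, BGN (all genes 57 of 15376).

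Macrophage and monocyte markers, 4 of 26 listed genes being found and tested, summed to 108 to 625 CPM in control, 106 to 591 CPM in dehydrated and 117 to 368 CPM in rehydrated medulla. None of the 4 was called in dehydration. Their sum had an r of 0.397 with CHI3L1 over the medulla libraries and 0.663 within condition. Within condition the other marker sums had r of 0.674 (HBB alone), 0.479 (loop and collecting duct), 0.345 (neutrophil), 0.148 (endothelial) and -0.123 (cortex tubule and glomerulus). The neutrophil markers LTF and PGLYRP1, 2 of 15 listed, summed to 7.15 to 20.1, 10.5 to 19.0 and 5.24 to 11.0 CPM, and PGLYRP1 was at 0 in all but 1 of the medulla libraries. Of the lymphocyte and red cell markers only HBB, 1 of 13 listed, was found, at 1.82 to 25.2, 1.34 to 3.77 and 0.650 to 12.0 CPM. Endothelial markers (4 of 7 listed) summed to 604 to 723, 606 to 1005 and 503 to 911 CPM with none called.

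The cortex tubule and glomerulus markers (5 of 18 listed) summed to 77.9 to 1042 CPM in control, 42.6 to 295 CPM in dehydrated and 254 to 637 CPM in rehydrated medulla, with a median log2 fold change of -1.92 in dehydration. Of these 5, 1 was called lower (all genes 0.741%), the anion transporter SLC17A3, at -2.50 ± 0.54 (SE, edgeR adjusted p = 0.0172). Loop and collecting duct markers (9 of 17 listed) summed to 15906 to 21885, 12635 to 19697 and 13364 to 23006 CPM. Of these 9, 3 fell in dehydrated medulla, namely ATP6V1B1, HSD11B2 and SCNN1A at -0.82, -1.07 and -0.89, where 0.741% of all tested genes fell. The other 6 were not called, at -0.34 for CLDN10, -0.28 for UMOD, 0.12 for CLDN8, 0.18 for CLDN4, 0.81 for AQP2 and 1.37 for AQP3. HSD11B2 and ATP6V1B1 rose again after rehydration against dehydration, by 1.63 and 1.07. In that comparison 2 of the 9 were called higher and 0 lower, where 1.15% of all tested genes rose. The part of these cell types in the CHI3L1 values was not tested.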

How the data were processed

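RNA was extracted from the renal cortex and medulla of 15 male dromedaries, poly-A selected and sequenced on 30 libraries. Per the file headers and the study's methods, the authors trimmed reads with BBDuk, aligned them to CamDro2 (STAR per the methods, Rsubread per the column names, which remains unsettled) and counted reverse-stranded fragments over the exons of Ensembl release 100 genes with featureCounts 1.6.2. The deposited values are raw counts per gene, not normalized.

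CHI3L1 and all gene lists were chosen with earlier results of these data known. Genes passing filterByExpr (minimum count 10, minimum total 15; 15376 of 22444) were fitted in edgeR 4.0.16 (R 4.3.3) with TMM factors, all 30 libraries and 6 groups of tissue and condition, by quasi-likelihood with Benjamini-Hochberg adjustment over all tested genes at 0.05. The bias-adjusted form of this fit was used first and then replaced by the default form, because on simulated counts it made too many false calls. TMM factors set the scale between tissues as well as between conditions. Log2 CPM had a prior count of 2. DESeq2 1.42.0 and limma-voom 3.58.1 were alternatives, as were RLE factors, no filter, 1 tissue alone, blocks and leaving out each library. P-values of the main fit measure the spread between libraries of these animals, pooled over both tissues. The cortex and medulla libraries of an animal were treated as independent. With the animal as block, 1 gene in place of 6 had a dehydration response that differed between tissues. With the medulla libraries alone, 74 genes in place of 149 were called in dehydrated against control medulla. The permutation test of the tissue relation used 100000 permutations in scipy 1.17.1.

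Symbols came from the study's supplementary lists, which pair 3652 identifiers with a symbol, so that list genes without one were not analysed here. Those supplementary lists include the study's catalogues of differentially expressed genes and proteins. Genes named by rule were CHI3L1, the 10 and 5 symbol-bearing genes with the highest and lowest r, tested family members, receptors and binding partners, 3 neighbours on either side and list members with an adjusted p under 0.05 in a medulla comparison. Further list and marker genes were named outside this rule, among them CLU, STAT3, SLC6A12, UMOD and the genes called only in the cortex or in DESeq2. The lists covered the chitinase family, receptors and binding partners, NF-kB, IL-1, IL-6 and STAT3 signalling, tubular injury, matrix, hypertonicity and 6 sets of cell type markers.

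The replicate numbers of different conditions name different animals, and the mean correlation of same-numbered libraries between conditions was -0.05 to 0.21, so they were not treated as pairs. The tissues of an animal were paired by the labels.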

Additional observations from a re-analysis of the deposited data

How the results depend on the processing

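All 150 alternatives for the CHI3L1 log2 fold changes, those that left out 1 library included, moved them by less than 1 SD between replicates. The replicate block, on numbers that are shared without pairing animals, gave 3.26, 2.86 and -0.40 in the medulla and 0.23, 0.23 and -0.00 in the cortex for dehydration and rehydration against control and for rehydration against dehydration. The animal as replicate block gave 2.59, 5.67 and 5.39 for medulla minus cortex in control, dehydration and rehydration. limma-voom gave 0.34, 0.03 and -0.31 in the cortex. Without 1 library the tissue differences ranged from 2.13 to 2.80, 5.37 to 6.30 and 4.75 to 5.69, the medulla changes from 2.93 to 3.56, 2.70 to 3.15 and -0.64 to 0.02, and the cortex changes from -0.53 to 0.36, -0.30 to 0.72 and -0.30 to 0.89.

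Counts of the 50 related genes called depended on the fit, and 76 of 128 alternatives stayed within 1.5 times. For dehydration against control in the medulla (4) DESeq2 gave 8, the tissue alone 2 and the replicate block 0, where the edgeR adjusted p of CCN1, IL1B, COL15A1 and BGN was 0.0612, 0.104, 0.123 and 0.160. For rehydration against control (1) they were 7, 0 and 0, with 4 in limma-voom, 4 in the bias-adjusted fit and 0 without a filter. For rehydration against dehydration (3) DESeq2 gave 8 and the bias-adjusted fit 5. In the cortex, dehydration against control (4) gave 2 without a filter, 1 in limma-voom and 2 with the replicate block. Rehydration against control (0) gave 2 in DESeq2 and 1 in the bias-adjusted fit, and rehydration against dehydration (6) gave 10 in DESeq2, 2 in limma-voom and 2 with the replicate block. The tissue difference (0) gave 1 in DESeq2. Without 1 library these counts ranged from 1 to 6, 0 to 2 and 1 to 4 in the medulla, 1 to 4, 0 to 2 and 1 to 6 in the cortex, and 0 to 1 for the tissue difference. Fewer samples in the fit bear on the tissue-alone, block and left-out counts, and the cause of the other shifts was not tested. Over all genes, the calls in these 6 comparisons and the tissue difference were 149, 34, 306, 360, 6, 330 and 6, against 394, 291, 860, 706, 124, 718 and 57 in DESeq2, 259, 125, 565, 376, 13, 356 and 7 in the bias-adjusted fit and 36, 0, 179, 212, 1 and 151 with the replicate block.

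The relation of medulla to cortex CHI3L1 (r 0.434) was 0.448 with RLE factors and 0.446 with a prior count of 0.5, was 0.797 in control and dehydrated animals and 0.776 with rehydrated pairs from the column names, and ranged from 0.216 to 0.614 without 1 animal. Of the 10 genes most like CHI3L1, 7 were shared by Spearman's rho, 9 with RLE factors, 0 by deviations from the condition means and 4 to 9 without 1 library.

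CHI3L1 counts were low in the cortex, where single libraries held 1 to 72, and counting error alone reached 100% of the lowest. With 5 animals a group and a wide spread, the medulla fold changes carry standard errors of 0.59 to 0.65 on the log2 scale. Most list genes had no symbol, so that counts over the lists describe the members found and not the pathways as a whole.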
